A study of Mus musculus with 21 samples.

Results

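Retinoic acid is made inside cells from vitamin A, and it acts by binding nuclear receptors that sit on DNA as pairs with a retinoid X receptor. Without ligand these receptors hold co-repressors on their targets, and with ligand they recruit co-activators. In the early embryo the ligand is made first by mesoderm, and its enzymatic removal keeps other regions free of it. Added retinoic acid drives pluripotent cells out of self-renewal. The 9 genes described here cover that chain: the receptors Rara, Rarb and Rarg, the ligand-making enzyme Aldh1a2, the retinaldehyde reductase Dhrs3, the ligand-degrading enzyme Cyp26a1, the carriers Crabp1 and Crabp2, and Stra8, a germ cell gene switched on by retinoic acid. They were found by symbol in a table of raw counts for 33861 mouse genes, which held all 9.

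RNA sequencing covered 21 samples in 7 groups of 3. Formative stem cells (FS) of 2 lines grew in a medium named A3XR, FS1 at passages 10, 11 and 18 and FS2 at passages 12, 13 and 16. Epiblast stem cells (EpiSCs) with E14, a mouse embryonic stem cell line, in their names grew in AF or AFX medium at passages 14, 15 and 16. Each cultured sample held 1000 cells, and each remaining sample was a single epiblast of embryonic day 5.0, 5.5 or 6.0 (E5.0, E5.5, E6.0). The oldest stage is 6.0 in the titles and 6.5 in another label field, and no genotype or strain is given for the epiblasts. The labels do not spell out the media. In the published account of these cells, AF stands for activin A with FGF2, AFX adds the tankyrase inhibitor XAV, which dampens WNT signalling, and A3XR combines a low dose of activin A with XAV and an inverse agonist of the retinoic acid receptors. FS cells thus differ from both EpiSC groups in line as well as in medium, and FS1 and FS2 are 1 line each. Comparisons of cultures with epiblasts join growth in culture to the kind of sample (1000 cells or a single epiblast). The 2 cannot be told apart. Because replicates in culture were different passages, p-values there cover the spread between passages. The 6 FS samples entered as replicates though they come from 2 lines, so these p-values do not measure the spread between lines.

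Total counts ran from 5827093 to 15916800 per sample, and levels below are CPM, counts scaled by the library's effective size, of which 3 counts were worth 0.171 to 0.589. All 8 epiblast markers, which include Pou5f1, Sox2 and Otx2, were present in every group, with summed levels of 1230 to 2891 CPM in cultured samples and 3900 to 7176 CPM in epiblasts. Markers of other cell types were not evenly spread. The 9 feeder fibroblast markers summed to 232 to 277 CPM in AF, against 31.7 to 56.3 in AFX, 19.5 to 51.2 in FS and 10.4 to 25.2 in epiblasts, with Lum at 0 in FS. The 13 visceral endoderm markers summed to 319 to 919 CPM at E5.0 and 75.0 to 112 in AF. In every other group they summed to 9.77 to 86.1 CPM, with Afp, Ttr, Apob and Hnf4a at 0 in FS. The AF and E5.0 sums were led by different genes. In AF the largest mean was Sox17 (31.1 CPM), while Apob was at 1.16, Cubn at 0.366 and Afp at 0. At E5.0 the largest means were Cubn (376 CPM), Apob (109) and Dab2 (96.8), and Sox17 was at 1.18. The 11 primitive streak and nascent mesoderm markers summed to 142 to 500 CPM in AF, 74.6 to 149 in AFX and 33.8 to 139 in FS, and Msgn1 was at 0 in all of these. In epiblasts they summed to 102 to 138 CPM at E5.0, 24.3 to 67.7 at E5.5 and 112 to 332 at E6.0. The 8 extraembryonic ectoderm markers summed to 18.7 to 38.5 CPM in AF, 10.7 to 25.3 in AFX and 5.17 to 10.3 in FS. In epiblasts they summed to 6.83 to 13.4 CPM at E5.5 and E6.0, and to 17.4, 56.3 and 7.67 in E5.0 embryos 1, 2 and 4, with embryo 2 the highest of all samples. The 8 neural plate markers summed to 320 to 511 CPM in cultures and 50.6 to 165 in epiblasts, and the 8 germ cell markers to 0.896 to 6.43 CPM in FS and 13.4 to 58.7 in the other groups. Single markers did not all follow these sums. The median log2 fold change, FS minus AF, was 2.17 over 3 germ cell markers tested. Over 7 neural plate markers tested it was 0.88, though the 8 summed to 320 to 443 CPM in FS and 445 to 511 in AF. The part of all these marker lists in the results below was not tested. In bulk RNA, fewer cells of a type and less RNA per cell cannot be told apart.

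The genes that respond to the receptors most directly carry a retinoic acid response element, a direct repeat of half-sites. Those searched for were AGGTCA, its variant AGTTCA, the form GGGTCA and the form GGTTCA. With 5 bases between the half-sites it is called DR5. RefSeq promoters (250 bases before to 50 after each annotated start, GRCm38.p6) were given for 8 of the 9 genes and were searched on both strands. A DR5 stood in the promoters of Rarb and Cyp26a1, and in 32 of all 32851 promoters searched (0.0974%). The repeats with 1 or 2 bases between the half-sites were in no promoter of the 8 genes, and in 0.222% and 0.268% of all. Both promoters are shown because they alone among the 8 held a DR5, which the capitals mark:
Rarb, chr14:16575427-16575726, minus strand: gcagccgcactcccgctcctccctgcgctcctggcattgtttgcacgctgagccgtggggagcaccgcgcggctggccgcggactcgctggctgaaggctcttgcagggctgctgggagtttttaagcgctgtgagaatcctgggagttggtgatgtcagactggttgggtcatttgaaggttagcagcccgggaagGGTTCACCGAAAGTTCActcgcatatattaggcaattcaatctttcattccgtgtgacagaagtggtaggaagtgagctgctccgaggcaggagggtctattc
Cyp26a1, chr19:37697558-37697857, plus strand: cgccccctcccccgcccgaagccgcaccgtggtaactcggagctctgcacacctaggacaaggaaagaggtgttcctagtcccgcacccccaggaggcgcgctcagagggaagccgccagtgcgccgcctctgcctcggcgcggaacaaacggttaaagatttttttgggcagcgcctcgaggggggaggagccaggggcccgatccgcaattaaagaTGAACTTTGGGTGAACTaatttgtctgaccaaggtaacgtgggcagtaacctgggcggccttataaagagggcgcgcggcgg
Counted from the start of transcription, the Rarb element runs from -53 to -37 and reads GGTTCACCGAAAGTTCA along the gene. The Cyp26a1 element runs from -32 to -16 and lies on the opposite strand to the gene. A match in these letters is a description and not evidence of binding.

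**Figure D1:**
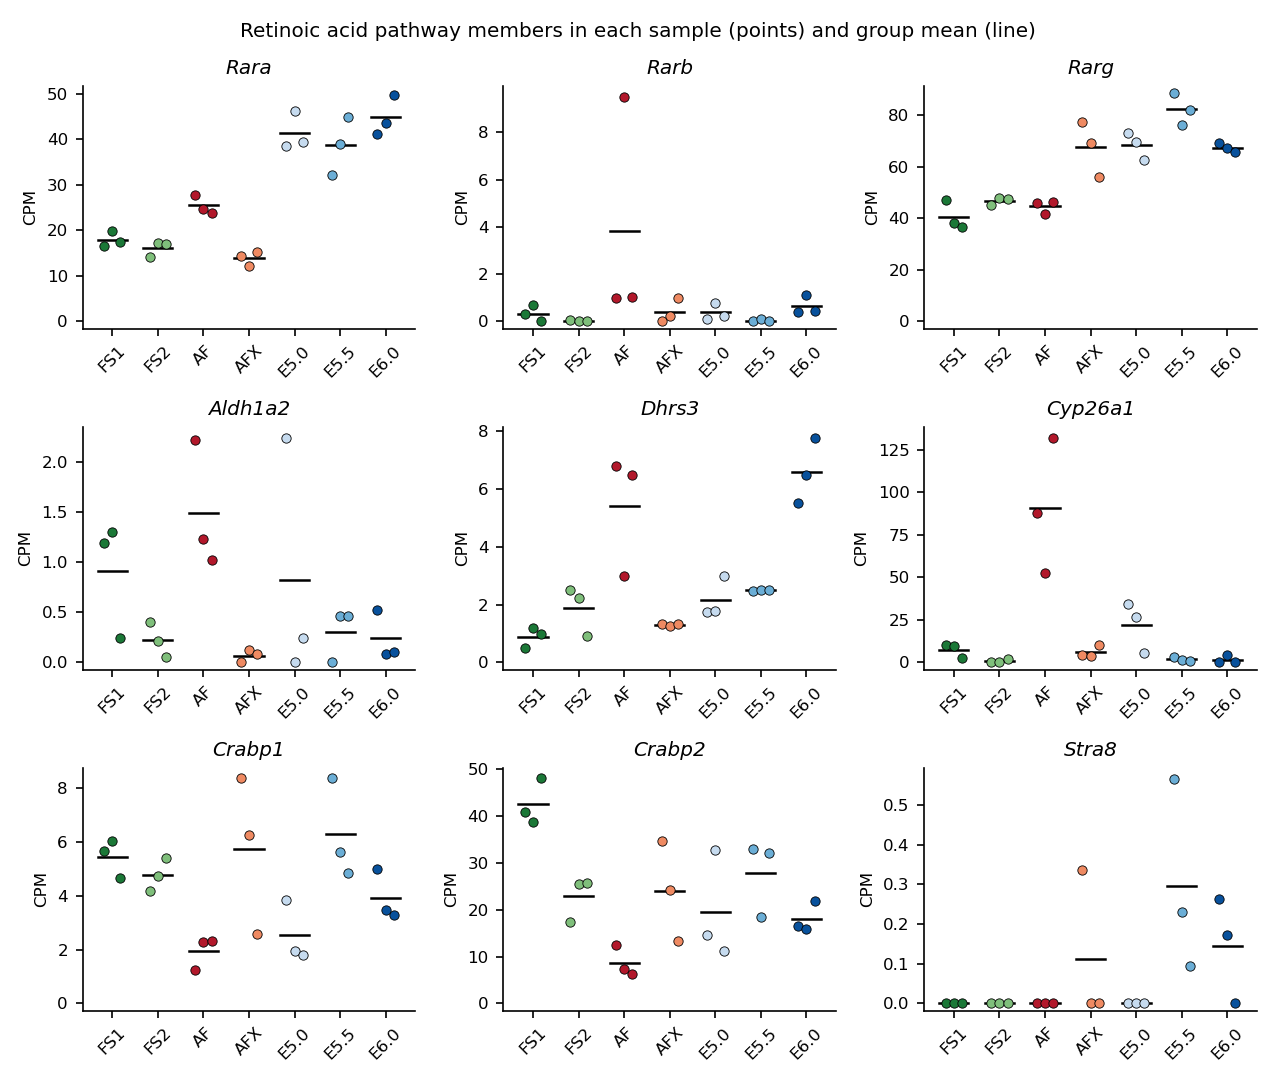
Level of each of the 9 genes in CPM (y axis, linear) in each of the 21 samples (points) by group (x axis), with the group mean as a line. Cyp26a1 was above 50 CPM in AF alone, Rara was highest in the 9 epiblasts, and Stra8 stayed under 0.6 CPM everywhere.

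The receptors were dominated by Rarg and Rara, with very little Rarb. Rara (ENSMUSG00000037992, chr11:98927818-98974942, plus strand in mm10) binds retinoic acid and is broadly expressed. Its level was 16.6, 19.8 and 17.4 CPM in FS1 at passages 10, 11 and 18, and 14.1, 17.2 and 17.0 CPM in FS2 at passages 12, 13 and 16. At passages 14, 15 and 16 it was 27.9, 24.8 and 23.9 CPM in AF and 14.3, 12.1 and 15.3 CPM in AFX. The AF samples lay above all other cultured samples, and FS overlapped AFX. Epiblasts were higher, at 38.5, 46.3 and 39.4 CPM in the E5.0 embryos, 32.2, 39.1 and 44.9 at E5.5 and 41.2, 43.6 and 49.8 at E6.0. No epiblast overlapped a cultured sample, whereas the 3 stages overlapped one another.

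Rara was lower in FS than in AF, with a log2 fold change and SE of -0.60 ± 0.14 and an adjusted p of 0.00666, and lower in AFX than in AF by -0.87 ± 0.16 (0.00470). These and the later values come from edgeR's quasi-likelihood test over all genes, two-sided with Benjamini-Hochberg adjustment, and an adjusted p under 0.05 is the threshold. FS and AFX did not pass a difference in Rara (0.28 ± 0.14, adjusted p 0.264). Against epiblasts Rara was lower in FS than at E5.5 (-1.19 ± 0.13, 3.66e-07), lower in AF than at E6.0 (-0.81 ± 0.16, 0.000435) and lower in AFX than at E6.0 (-1.69 ± 0.16, 1.14e-07). With FS line 1 alone the difference from AF was -0.52 and missed the threshold (0.0550). Between stages of the epiblast Rara passed no test.

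Rarg (ENSMUSG00000001288, chr15:102234938-102257517, minus strand) is the receptor with the highest level in these cells. It was at 46.9, 38.3 and 36.6 CPM in FS1, 44.99, 47.7 and 47.3 in FS2 and 45.7, 41.7 and 46.4 in AF. FS and AF overlapped. In AFX it was at 77.2, 69.1 and 56.1 CPM, above every FS and AF sample. Epiblasts ran from 62.5 to 73.0 CPM at E5.0, 76.3 to 88.7 at E5.5 and 65.6 to 69.1 at E6.0, so E5.5 did not overlap the other stages, and AFX passage 16 was the only AFX sample below all epiblasts.

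Rarg was higher in AFX than in AF (0.59 ± 0.14, adjusted p 0.0172) and lower in FS than in AFX (-0.64 ± 0.12, 0.00354), and the difference between FS and AF was -0.04 ± 0.12 (0.852). It was lower in FS than at E5.5 (-0.91 ± 0.11, 9.81e-07) and in AF than at E6.0 (-0.59 ± 0.13, 0.00149), while AFX and E6.0 had means of 67.5 and 67.3 CPM (0.01 ± 0.13, 0.983). E5.5 against E5.0 was at 0.26 ± 0.12 (0.241) and E6.0 against E5.5 at -0.29 ± 0.12 (0.212), neither past the threshold. The call in AFX against AF was lost without AF passage 15, without AFX passage 14 or without AFX passage 15, at 0.47 to 0.58.

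Rarb (ENSMUSG00000017491, chr14:16430839-16819156, minus strand), a receptor that is itself a classic target of retinoic acid, was near the limit of detection in most samples. FS1 had 3, 6 and 0 counts and FS2 had 1, 0 and 0. AF had 8, 108 and 11 counts at passages 14, 15 and 16, which is 0.987, 9.49 and 1.02 CPM, and AFX had 0, 2 and 12. Embryos held 0 to 13 counts each, with a single count over the E5.5 epiblasts. The AF sample at passage 15 thus stood far above the other AF samples, which were close to AFX passage 16 and to E6.0 embryo 2 (12 and 13 counts). Rarb was lower in FS than in AF (-4.57 ± 1.11, adjusted p 0.0110), and without AF passage 15 it was at -2.62 and missed the threshold (0.146). Without FS1 passage 11 it was at -5.68. With FS line 1 alone it was at -3.62 (0.0950). AFX against AF was at -3.20 ± 1.28 (0.155). The gene overlaps Top2b on the opposite strand, and strand use in the counting is not given in the sources used here. Top2b had 1372 to 3601 counts in the cultured samples, where 5 of 12 had at most 1 Rarb count.

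Per kilobase of exon (RPKM, from GENCODE M21 exon lengths), which allows genes to be compared, Rarg stood above Rara in every sample. The mean Rarg level was 10.2 ± 1.15 RPKM (SD, n = 6) in FS, 10.5 ± 0.602 (n = 3) in AF, 15.8 ± 2.50 in AFX and 15.8 ± 0.408 at E6.0. The mean Rara level was 3.90 ± 0.423, 5.85 ± 0.474, 3.18 ± 0.371 and 10.3 ± 1.02 RPKM in the same order. Rarg was thus 2.67 ± 0.497 times Rara in FS, 1.80 ± 0.165 in AF, 5.04 ± 1.12 in AFX and 1.55 ± 0.186 at E6.0. In AFX the ratio ran from 3.76 to 5.84, above the highest FS sample (3.28) and the highest AF sample (1.99). The log2 ratio differed by 1.47 between AFX and AF (exact permutation test, two-sided, p = 0.1, the smallest that 3 against 3 allows) and by -0.92 between FS and AFX (exact p = 0.0238). None of 6 such tests passed after adjustment, with an adjusted p of 0.143 for FS against AF and for FS against AFX. Rarb made up at most 10.4% of the summed receptor level, in AF passage 15, and at most 1.12% in a sample of any other group.

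**Figure D2:**
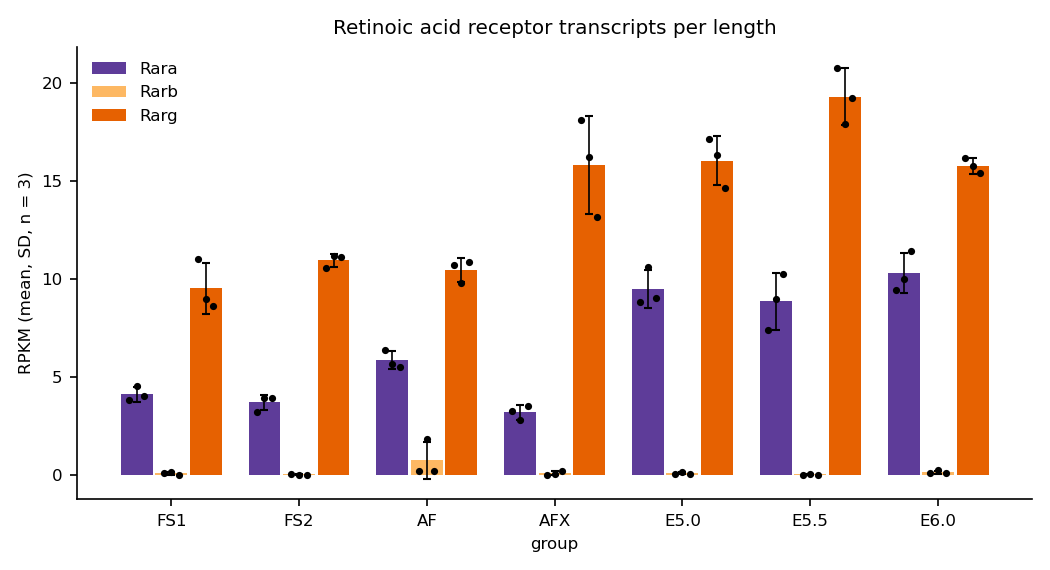
Receptor transcripts in RPKM (y axis, from 0) by group (x axis); bars are means of 3 samples, error bars SD and dots samples. Rarg was above Rara in each group, most in AFX (15.8 against 3.18), and Rara was highest in the epiblast groups (8.87 to 10.3).

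Of the enzymes, the one that degrades retinoic acid varied most. Cyp26a1 (ENSMUSG00000024987, chr19:37697798-37701536, plus strand) oxidises the ligand and is induced by it. AF samples held 87.6, 52.6 and 132 CPM, from 710, 599 and 1420 counts. AFX held 4.43, 3.999 and 10.6 CPM. FS1 held 10.02, 9.56 and 2.36 CPM and FS2 0.0803, 0 and 2.27 CPM. AF did not overlap any other group, and the lowest FS1 sample and the highest FS2 sample were nearly equal. At E5.0 the level was 34.4, 26.5 and 5.52 CPM in embryos 1, 2 and 4. At E5.5 it was 3.39, 1.26 and 0.839 CPM, and at E6.0 0.525, 4.15 and 0.426 CPM. Every E5.0 embryo was above every later embryo.

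Cyp26a1 was lower in FS than in AF (log2 fold change -4.55 ± 0.90, adjusted p 0.00627), the second largest difference among the members. The larger value, of Rarb, fell to -2.62 without AF passage 15. Cyp26a1 stayed between -5.08 and -4.18 when 1 sample was left out. AFX against AF was at -3.83 ± 1.13 and did not pass (0.0699), although the groups did not overlap. With AFX and AF fitted alone the value was -3.83 with an adjusted p of 0.00196, and with the FS lines as separate groups it was -3.83 with 0.00756. FS against AFX was at -0.72 ± 0.98 (0.731), with the lines apart: -2.73 (0.0450) with line 2 alone and 0.17 (0.926) with line 1 alone. The summed markers of feeder fibroblast, visceral endoderm and primitive streak were also highest in AF among the cultures, and their part in the result was not tested. At AF passages 14, 15 and 16 the feeder fibroblast sums were 277, 264 and 232 CPM. In the same order they were 75.0, 91.2 and 112 CPM for visceral endoderm and 274, 142 and 500 CPM for primitive streak. Among the visceral endoderm markers the largest mean was Sox17 in AF and Cubn at E5.0.

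FS2 against FS1 was at -2.91 ± 0.92 for Cyp26a1 and did not pass the threshold (adjusted p 0.126), and FS2 passage 16 held 40 of the 41 FS2 counts. Without that sample the difference was -7.00 and passed (0.0380). Between FS and E5.5 the difference was 1.12 ± 1.15 (0.456), with line 1 above and line 2 below the E5.5 mean of 1.83 CPM. AF lay above E6.0 by 5.62 ± 1.29 (0.00340), the largest difference from the epiblast among the members tested, and by 7.55 without E6.0 embryo 2.

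Within the epiblast, Cyp26a1 was lower at E6.0 than at E5.0 by -3.64 ± 1.00 (adjusted p 0.0335) and stood at -3.61 ± 1.01 at E5.5 (0.0731), which passed without E5.0 embryo 4 (-4.07, 0.0317) and in DESeq2 (-3.62, 0.0108). The call at E6.0 was lost in 4 of the 6 fits that left out an embryo (E5.0 embryos 1 or 2, E6.0 embryos 1 or 3), at -3.48 to -3.15. E6.0 embryo 2 held 48 of the 56 E6.0 counts, and without it the difference was -5.51. Visceral endoderm markers moved the same way, from 737, 919 and 319 CPM in E5.0 embryos 1, 2 and 4 to 30.1 to 36.8 at E6.0, and E5.0 embryo 4 was lowest in both. Their part in the result was not tested.

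Aldh1a2 (ENSMUSG00000013584, chr9:71215789-71296243, plus strand), which makes retinoic acid from retinaldehyde, was scarce in every group. FS1 had 12, 11 and 3 counts, FS2 had 5, 2 and 1, AF had 18, 14 and 11, and AFX had 0, 1 and 1. AF stood above AFX in every sample and overlapped FS1. E5.0 embryo 1 had 18 counts and each other embryo 5 or fewer. Aldh1a2 was lower in AFX than in AF (-4.41 ± 1.16, adjusted p 0.0277). As a ratio of pooled counts this is 0.0403, with a 95% interval of 0.00473 to 0.155 that covers counting error only. The call was lost without AF passage 14 and without each single AFX passage, at -4.94 to -3.74. FS against AF was at -1.45 ± 0.72 (0.182), and at -2.76 (0.0209) with FS line 2 alone. FS against AFX was at 2.96 ± 1.14 (0.131), and at 3.68 (0.0453) with line 1 alone. In the epiblast fits Aldh1a2 did not pass the filter on low counts.

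Dhrs3 (ENSMUSG00000066026, chr4:144892827-144928209, plus strand) turns retinaldehyde back into retinol, which lowers the supply of substrate, and is also a known retinoic acid target. Its level was 0.496, 1.18 and 0.977 CPM in FS1, 2.49, 2.21 and 0.910 in FS2, 6.78, 2.99 and 6.49 in AF and 1.34, 1.25 and 1.33 in AFX. AF lay above all other cultured samples. In embryos it was 1.74, 1.77 and 2.998 CPM at E5.0, 2.49, 2.52 and 2.52 at E5.5 and 5.51, 6.49 and 7.77 at E6.0, so that E6.0 did not overlap the earlier stages.

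Dhrs3 was lower in FS than in AF (-1.98 ± 0.42, adjusted p 0.00419) and lower in AFX than in AF (-2.04 ± 0.53, 0.0254), and FS and AFX had means of 1.38 and 1.31 CPM (0.06 ± 0.47, 0.965). The AFX call was lost in 5 of the 6 fits that left out a sample, at -2.07 to -1.86. In the epiblast Dhrs3 was higher at E6.0 than at E5.0 (1.57 ± 0.45, 0.0219), a call lost without E6.0 embryo 2 (1.60, 0.0787) or embryo 3 (1.46, 0.103). E6.0 against E5.5 was at 1.39 ± 0.44 (0.0949), and DESeq2 called it (1.40, 0.0387). Primitive streak markers summed to 24.3 to 67.7 CPM at E5.5 and 112 to 332 at E6.0, but also to 102 to 138 at E5.0, and their part in the Dhrs3 result was not tested. AFX was lower than E6.0 (-2.32 ± 0.50, 0.00122), and AF against E6.0 was at -0.29 ± 0.46 (0.666). Dhrs3 and Cyp26a1 were thus both highest in AF among cultures, and in the epiblast Dhrs3 was highest at E6.0 and Cyp26a1 at E5.0.

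The carriers went the other way between cultures. Crabp2 (ENSMUSG00000004885, chr3:87948666-87953376, plus strand) delivers retinoic acid to the nucleus. It was at 40.9, 38.7 and 48.2 CPM in FS1, 17.4, 25.5 and 25.8 in FS2, 12.6, 7.47 and 6.22 in AF and 34.7, 24.2 and 13.3 in AFX. All FS and AFX samples were above all AF samples, and FS1 was above FS2. Embryos ran from 11.2 to 32.8 CPM at E5.0, 18.6 to 33.1 at E5.5 and 15.93 to 21.8 at E6.0. The overlap of E5.0 with E5.5 rested on E5.0 embryo 2, at 32.8 CPM against 14.6 and 11.2 in the other E5.0 embryos. E5.5 against E5.0 was at 0.52 ± 0.36 for Crabp2 and did not pass (adjusted p 0.440). Without E5.0 embryo 2 it was at 1.11 and passed (0.0328). That embryo was also highest in extraembryonic ectoderm and visceral endoderm markers. E5.0 embryo 1 had a visceral endoderm sum of 737 CPM, with Crabp2 at 14.6 CPM. The part of these markers in the result was not tested.

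Crabp2 was higher in FS than in AF (1.91 ± 0.39, adjusted p 0.00436) and in AFX than in AF (1.47 ± 0.42, 0.0495). FS against AFX was at 0.43 ± 0.35 (0.517). The AFX call was lost with DESeq2 size factors (1.46, 0.0507), without the filter on low counts (1.47, 0.156) and without AF passages 15 or 16 or AFX passages 14 or 15, at 1.09 to 1.47. FS2 against FS1 was at -0.91 ± 0.31 (0.129), and passed at -0.91 (0.00490) with the FS lines fitted alone.

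Crabp1 (ENSMUSG00000032291, chr9:54764748-54773110, plus strand) holds retinoic acid in the cytoplasm and is linked to its breakdown. It was at 5.66, 6.02 and 4.64 CPM in FS1, 4.18, 4.75 and 5.40 in FS2, 1.23, 2.29 and 2.32 in AF and 8.39, 6.25 and 2.58 in AFX. FS and AFX samples again stood above AF, though AFX passage 16 only just. E5.0 embryos held 3.85, 1.96 and 1.80 CPM, E5.5 embryos 8.36, 5.62 and 4.85 and E6.0 embryos 4.99, 3.46 and 3.30. E6.0 overlapped both earlier stages. Crabp1 was higher in FS than in AF (1.36 ± 0.36, adjusted p 0.0151) and in AFX than in AF (1.54 ± 0.40, 0.0254). The first call was lost without AF passage 14 (1.13, 0.0793) and with FS line 2 alone (1.25, 0.0572). The second was lost without any one of 4 samples and with the 2 groups alone (1.53, 0.0968). E5.5 stood above E5.0 in every embryo, at 1.28 ± 0.47, without passing (0.118), and E6.0 against E5.5 was at -0.69 ± 0.45 (0.468).

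Stra8 (ENSMUSG00000029848, chr6:34920163-34939344, plus strand), which retinoic acid induces in germ cells entering meiosis, was not detected in the FS, AF or E5.0 samples. A count of 0 there allows up to 3 counts, which is at most 0.589 CPM. AFX passage 14 had 5 counts, E5.5 embryos 5, 2 and 1, and E6.0 embryos 2, 2 and 0. These are at or near the floor, and Stra8 entered no test.

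Counted over the members, 6 of the 8 tested differed between FS and AF, 2 higher and 4 lower in FS, where 19.5% of all 16052 genes tested were called (8.86% higher, 10.6% lower). Between AFX and AF 6 of 8 differed, 3 higher and 3 lower in AFX, where 8.73% of genes were called (4.3% higher, 4.42% lower). The second comparison is the less stable one. Leaving out 1 sample brought that count to 1 without AFX passage 14 or 15, to 3 without AF passage 14 or 16, and to 4 without AF passage 15 or AFX passage 16. Between FS and AFX 1 of 8 differed, Rarg, lower in FS, against 8.7% of genes (3.78% higher, 4.92% lower). These comparisons share samples: FS stands in 2 of them, and AF and AFX in 2 each. The median log2 fold change of the 8 was -1.02, -1.46 and -0.06 in FS against AF, AFX against AF and FS against AFX, where the median of all genes was 0.02, 0.01 and 0.00397.

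No member passed between the FS lines, where 3.85% of genes were called (2.65% higher and 1.2% lower in FS2). In that edgeR test 3 of the 8 had an unadjusted p under 0.05 (Cyp26a1, Crabp2 and Aldh1a2). DESeq2 called 0 of the 8, and 1099 of the 16052 genes fitted. The share of all genes at an unadjusted p under 0.05 was not counted, here or in the epiblasts. Among epiblasts 6 members were tested. None passed between E5.0 and E5.5 (6.82% of genes called, 3.07% higher and 3.75% lower at E5.5) or between E5.5 and E6.0 (4.43%, 1.89% higher and 2.54% lower at E6.0) in edgeR, with 2 of 6 at an unadjusted p under 0.05 and 1 called by DESeq2 in each. Of the 14228 genes fitted, DESeq2 called 1590 in the first comparison and 1075 in the second. Between E5.0 and E6.0 the 2 described above passed, Dhrs3 higher and Cyp26a1 lower at E6.0, against 21.8% of genes (10.2% higher, 11.6% lower). Against epiblasts 2 of 7 tested differed between FS and E5.5, both lower in FS, where 43.8% of genes were called (23% higher, 20.8% lower). Between AF and E6.0 it was 3 of 7, 1 higher and 2 lower in AF, against 35.2% (18.1% higher, 17.1% lower). Between AFX and E6.0 it was 2 of 7, both lower in AFX, against 32.8% (17.1% higher, 15.8% lower). With 7 members these counts are near the shares of all genes called.

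**Figure D3:**
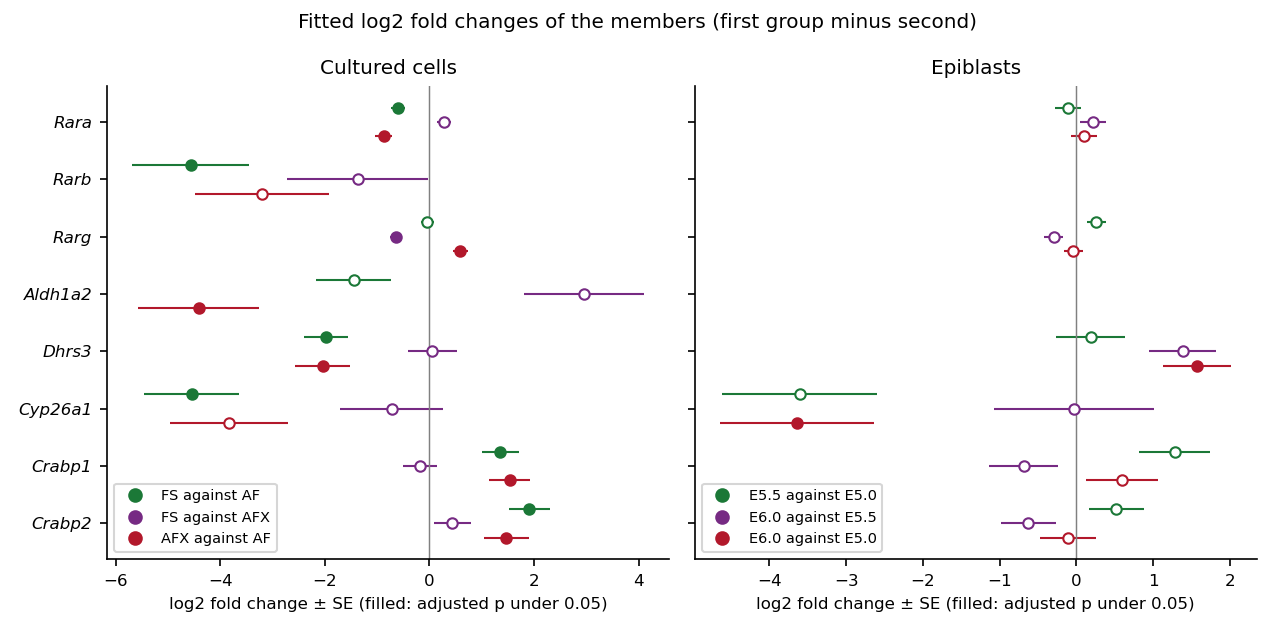
Log2 fold change with SE (x axis) of the members that were tested (y axis) in cultured cells and in epiblasts; filled points have an adjusted p under 0.05. In FS against AF, Rarb and Cyp26a1 lay lowest (-4.57 and -4.55) and Crabp2 highest (1.91).

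The rest of the pathway was read from 5 lists of 55 genes in all, of which 37 were tested in cultured cells. Between FS and AF 15 of the 37 differed, 4 higher and 11 lower in FS, where 19.5% of all genes were called (8.86% higher, 10.6% lower), and with FS line 1 alone 9 did. In the list of other genes known to respond to retinoic acid, 6 of 13 tested were lower in FS and 2 were higher, with a median of -1.47. Zfp703, a transcriptional repressor, was at 1.98 ± 0.931 CPM (n = 6) in FS and 15.7 ± 4.70 (n = 3) in AF (-3.02 ± 0.31, adjusted p 1.39e-05). Foxa1, a transcription factor of endoderm that also stands among the visceral endoderm markers, was at 0.961 ± 1.06 and 12.2 ± 2.77 CPM (-3.75 ± 0.67, 0.00185). Tgm2, a transglutaminase, was at 1.90 ± 0.876 and 8.11 ± 4.22 CPM (-2.10 ± 0.42, 0.00269). Tshz1, Rai14 and Ets1 were lower by -1.47, -1.07 and -0.94. Meis1, a partner of HOX proteins on DNA, was higher by 1.52 ± 0.50 (0.0495). Against E5.5, 6 of 13 tested genes of this list were higher in FS and 0 lower (median 1.52). Of all genes 23% were higher and 20.8% lower there. Against E6.0, 8 of 13 were higher and 0 lower in AF (median 2.07) and in AFX (median 1.71). Of all genes 18.1% were higher and 17.1% lower in AF, and 17.1% and 15.8% in AFX.

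The 7 listed Hox genes were nearly silent, with group means of 0 to 0.846 CPM, the highest being Hoxa3 in AF with 23 counts. Nrip1, a co-repressor that retinoic acid induces, was lower in FS, at 11.6 ± 2.76 against 43.4 ± 14.8 CPM in AF (-1.91 ± 0.36, adjusted p 0.00229), as were the co-activator Ncoa3 (-0.58), the reductase Rdh11 (-0.64) and Cyp1b1 (-2.06). Med1 and Adh5 were higher, each by 0.41. The retinoid X receptors Rxra, Rxrb and Rxrg passed no test between the cultures. The other enzymes that degrade retinoic acid, Cyp26b1 and Cyp26c1, were under the filter, with at most 27 and 52 counts over any group.

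**Figure D4:**
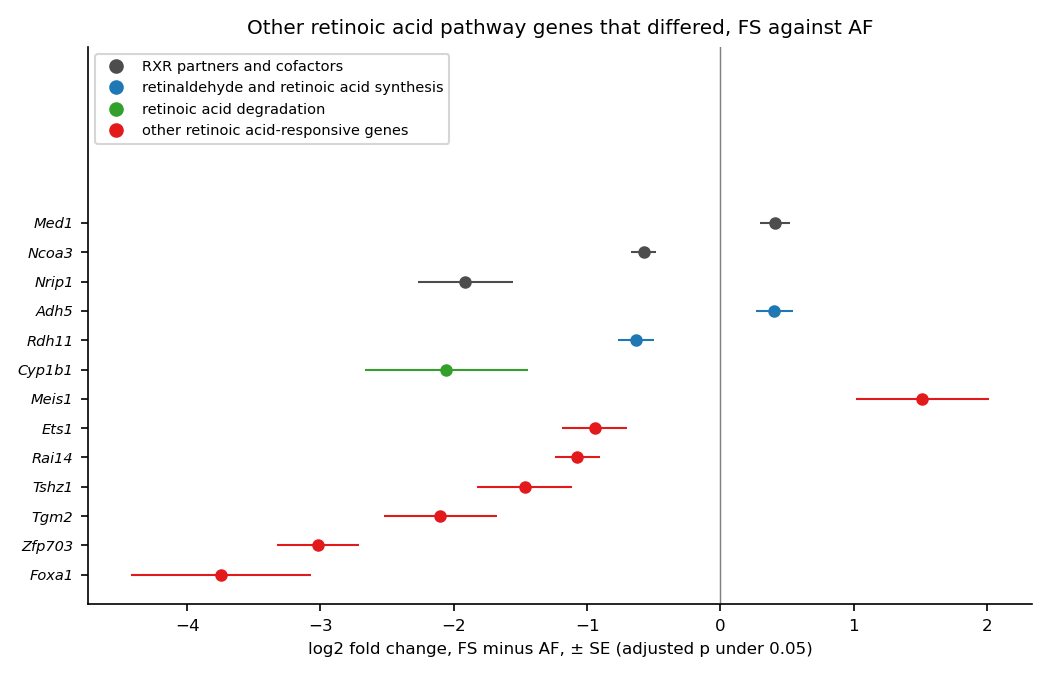
Log2 fold change, FS minus AF, with SE (x axis) of 13 of the 15 other pathway genes with an adjusted p under 0.05 (y axis), coloured by list. Among them 10 lie below 0, with Foxa1 (-3.75) and Zfp703 (-3.02) lowest and Meis1 (1.52) highest.

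Between AFX and AF 10 of the 37 differed, 3 higher and 7 lower in AFX, against 8.73% of all genes, and without AFX passage 15 there were 4. In the list of other responsive genes 2 of 13 tested were higher in AFX and 2 were lower, with a median of -0.67. Zfp703 (-1.64 ± 0.36, adjusted p 0.0119), Tshz1 (-1.88 ± 0.44, 0.0156), Nrip1 (-1.66 ± 0.43, 0.0318), Cyp1b1, Cyp2s1, Rdh11 and Ncoa3 were lower. Dgat1, which esterifies retinol, was higher (1.07 ± 0.23, 0.0111). Between FS and AFX 7 of the 37 differed, against 8.7% of all genes. In FS, Zfp703 (-1.37 ± 0.32, 0.0141), Rai14 (-1.01 ± 0.17, 0.00163), Foxa1 (-2.64 ± 0.69, 0.0304) and Dgat1 were lower, and Meis1 (2.18 ± 0.52, 0.0192) and Cyp2s1 were higher. Without AFX passage 16 there were 2, with FS line 1 alone 1 and with line 2 alone 13. AF was the culture with the highest mean of Zfp703, Foxa1, Tgm2 and Nrip1, and it was also the culture with the highest sums of feeder, endoderm and streak markers, whose part in these differences was not tested.

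In the epiblast 9 of 31 tested pathway genes differed between E6.0 and E5.0, against 21.8% of all genes, and 5 did without E6.0 embryo 1. Fabp5, a fatty acid carrier that also binds retinoic acid, rose from 33.7 ± 5.92 to 135 ± 17.7 CPM (1.99 ± 0.16, adjusted p 2.89e-06), and it passed at each step, at 0.61 ± 0.16 to E5.5 (0.0348) and 1.38 ± 0.16 from there (0.000148). Rxrb rose by 0.62. The carrier Ttr, which is also a visceral endoderm marker, fell by 5.24 ± 0.89 (0.000943), and Ncoa1, Ncoa3, Bco1 and Cyp2s1 were also lower.

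The genes whose levels followed a member most closely over the 21 samples were ranked by Pearson's r of log2 CPM among 16613 genes, for the 4 members that reached 10 CPM. For Cyp26a1 they were Lhx1 (r = 0.918), Adamts9 (0.892) and Dsp (0.875). Lhx1, a streak and anterior endoderm transcription factor, was at 99.1 ± 64.1 CPM in AF, 9.11 ± 10.9 in AFX, 1.34 ± 2.22 in FS and 15.8 ± 5.79 at E5.0. For Rara they were Rps4l (0.962), Ap1m2 (0.960) and Skil (0.958), for Rarg Rpl8 (0.940), Arhgap39 (0.920) and Xrcc6 (0.906), and for Crabp2 Crocc (0.777), Frrs1l (0.774) and Qprt (0.731). The samples share their division into cultures and epiblasts, so these correlations describe group levels and carry no p. By rank correlation none of the 3 genes nearest to Rara and 1 of the 3 nearest to Crabp2 stayed among the nearest 3. Among the 7 members other than Rarb and Stra8, Crabp1 and Crabp2 had the highest r (0.653) and Crabp2 and Dhrs3 the lowest (-0.61).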

How the data were processed

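The authors deposited 1 table of raw counts per gene, 1 column for each of the 21 samples. Per the labels, total RNA was isolated with the PicoPure kit. The submitters' processing notes name Trim Galore, TopHat2 2.1.0, featureCounts 1.5.0 and mm10; the annotation and strand setting are not given in the sources used here. The labels give no batch.

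Counts were analysed with edgeR 4.0.16 in R 4.3.3 (filterByExpr, TMM, robust quasi-likelihood F-tests). Comparisons among cultures used 12 samples with both FS lines as 1 group (separate for FS2 against FS1), those among stages 9 epiblasts, and those between cultures and epiblasts all 21. SE is the log2 fold change divided by the root of F. CPM used TMM over all 21 samples. Positions and exon lengths are from GENCODE M21 (GRCm38, the same assembly as mm10). Ratios used exact permutation tests (scipy 1.17.1), added after the data were examined. Alternatives included DESeq2 1.42.0, other filters, other sample sets and each sample left out. The steps were tested on simulated data. All 21 replicate pairs differed by more than counting error.

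Named genes were all 9 members, pathway genes past the threshold (some are not reported here), and the 3 genes most correlated with each member of at least 10 CPM. Members and lists were chosen with earlier results of these data known.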

Additional observations from a re-analysis of the deposited data

How the results depend on the processing

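Alternatives were DESeq2 size factors, DESeq2's Wald test, no filter on low counts, a CPM minimum of 1 on average, only the 2 groups compared, FS line 1 or 2 by itself, separate FS lines, a replicate block and leaving out single samples. Of the 937 member fold changes recomputed, 26 changed direction, none of them past the threshold as reported. The count of members called moved by more than 1.5 times as follows: FS against AFX 2 with either FS line alone, FS2 against FS1 2 without the filter and 1 with 2 groups alone, E5.5 against E5.0 1 and E6.0 against E5.5 1 with DESeq2's Wald test, E6.0 against E5.5 1 with 2 groups alone, E6.0 against E5.0 1 without the filter, and AF against E6.0 5 with 2 groups alone. Among smaller moves, FS against AF had 4 with FS line 1 alone and 5 with DESeq2, and AF against E6.0 had 4 with DESeq2.

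Leaving out 1 sample gave 1 to 4 members in AFX against AF, 0 to 1 in FS2 against FS1, 0 to 1 in E5.5 against E5.0 and 0 to 2 in E6.0 against E5.0. Without the filter, the fits of FS2 against FS1 and of the epiblasts had no finite prior degrees of freedom, so calls gained or lost there carry no weight. With FS line 2 alone, directions turned for Rarg against AF (0.041), Crabp2 against AFX (-0.10), and Cyp26a1 (-0.93), Crabp2 (-0.28) and Aldh1a2 (-0.51) against E5.5. With line 1 alone they turned for Cyp26a1 (0.17) and Dhrs3 (-0.56) against AFX, and with separate lines for Dhrs3 (-0.049). Rarg in AFX against E6.0 turned without the filter (-0.0064) and with the CPM minimum (-0.028). Leaving out samples turned, in FS against AFX, Rarb (-2.46 to 0.63), Crabp1 (-0.54 to 0.23) and Dhrs3 (-0.21 to 0.22); in epiblasts, Rara at E5.5 against E5.0 (-0.22 to 0.0089), Cyp26a1 at E6.0 against E5.5 (-1.91 to 0.77), and Rarg (-0.086 to 0.031) and Crabp2 (-0.38 to 0.48) at E6.0 against E5.0; and Crabp2 in FS against E5.5 (-0.030 to 0.37), Dhrs3 in AF against E6.0 (-0.48 to 0.0092) and Rarg in AFX against E6.0 (-0.10 to 0.12). The causes were not tested.

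Shared passage or embryo numbers did not pair the samples: correlations of same-numbered deviations were -0.125, -0.0930 and 0.196 for AF with AFX and -0.0477 to 0.102 among epiblasts. The replicate block for AFX against AF was fitted on those 2 groups alone, where 6 members, 10 pathway genes and 1175 genes in all were called without it and 5, 6 and 907 with it. Of the members, Rarg lost its call with the block (0.58, adjusted p 0.0876; 0.59, 0.0455 without it). Crabp1 was not called and Cyp26a1 was called in both fits (1.42, 0.193 and -3.89, 0.000166 with the block). With the block over the 9 epiblasts, Rara in E6.0 against E5.0 was at -0.028. All-gene counts also moved to 1099 (DESeq2), 1298 (no filter) and 1045 (2 groups alone) from 618 in FS2 against FS1, to 1590, 1659, 453 and, with the block, 421 from 971 in E5.5 against E5.0, and to 1075, 1107 and 1445 from 631 in E6.0 against E5.5. Leaving out 1 sample took them as low as 820 from 1397 in FS against AFX, 732 from 1401 in AFX against AF, 316 in FS2 against FS1, 371 in E5.5 against E5.0, 238 in E6.0 against E5.5 and 1905 from 3100 in E6.0 against E5.0, so the shares of all genes called are themselves uncertain. Depth limits Rarb, Aldh1a2 and Stra8, which had few counts.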
